A study of Mus musculus with 24 samples.

Results

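The comparison described here sets mouse fibroblasts that had received spermidine for 240 min against the same kind of cells before spermidine, on 6 of the 24 arrays of a time course. The members were chosen by their labels: 3 arrays carry the 240 min time and 3 the unstimulated 0 min time. The 240 min cells were NIH3T3 cells, an immortalised line of mouse embryonic fibroblasts, kept for 96 h in 1 mM difluoromethylornithine (DFMO) and then given 10 µM spermidine in the presence of 1 mM aminoguanidine. The 0 min cells were NIH3T3 cells kept for 96 h in 1 mM DFMO without spermidine. The labels do not say whether they had received aminoguanidine. Each of the 8 time points of the course had 3 biological replicates, and 200 ng of total RNA went into each labelling. None of the arrays came from dishes left in DFMO alone for the added 240 min, so the time in culture, the aminoguanidine and the spermidine cannot be told apart.

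Polyamines (putrescine, spermidine and spermine) are small, positively charged molecules that bind RNA and other polyanions, and growing cells need them to divide. DFMO irreversibly blocks ornithine decarboxylase, the enzyme that makes putrescine, so cells kept in it run short of putrescine and spermidine and stop growing. Added spermidine is taken up and refills the pool downstream of the block, and aminoguanidine keeps the amine oxidases of serum from turning it into toxic aldehydes. Spermidine also donates the group that turns a lysine of the translation factor eIF5A into hypusine, and it governs the frameshift through which antizyme is made. Antizyme in turn marks ornithine decarboxylase for degradation and limits polyamine uptake.

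The markers of the labelled cell type were present. The 13 fibroblast markers had a median level of 11.4 to 11.5 on the log2 scale over the 240 min arrays and 11.5 to 11.6 over the 0 min arrays, and 12 of the 13 were above 6 at both times. Their summed level ranged from 129 to 132 at 240 min and from 130 to 131 at 0 min. None of the markers of macrophages, epithelium, adipocytes, skeletal muscle or endothelium was called, and among these lists only 1 marker each of macrophages, epithelium and adipocytes lay above 6 at both times. Summed levels of these 5 lists differed little between the times, for example 32.2 to 32.6 at 240 min and 32.1 to 32.4 at 0 min for the 7 macrophage markers. In RNA from whole dishes, fewer cells of a type and less RNA per cell cannot be told apart.

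Far more RNAs were lower than higher after 240 min. Of 19938 genes, 73 were higher (0.366%) and 537 lower (2.69%) at 240 min than at 0 min, at an adjusted p under 0.05 (limma over all 24 arrays, Benjamini-Hochberg adjustment). Most of the changes were small. The median difference was 0.32 on the log2 scale, or 1.25-fold, among the higher genes and -0.37, or 0.776-fold, among the lower genes, and only 1 rise and 11 falls reached 1 on the log2 scale. Over all genes the median difference was 0.00101. The lower genes had a median 0 min level of 7.33, against 4.35 over all genes. Genes that reached 6 on fewer than 3 of the 6 arrays were taken as dim. With these left out of the fit, 96 of 6873 genes were higher and 582 lower, with a median of -0.0395. The shares over all genes are thus a low standard for lists of bright genes. An unadjusted p under 0.05 was reached by 3070 genes. The p-values measure the spread between replicates that the labels call biological. Averaged over the 8 times, every gene had the same level in replicates 1, 2 and 3, so an effect of replicate number had been taken out before deposit, and these p-values may be too small. With replicate number as a block in the fit, 30 genes were higher and 326 lower.

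Array 3 of 240 min lay apart from the other arrays of its time. On the first principal component of all 24 arrays, which held 63.1% of the variance, it stood at -13.2, against 2.07 and 1.49 for arrays 1 and 2, whereas the 0 min arrays stood at -16.3, -16.1 and -14.4. Its root mean square distance over all genes averaged 0.147 to the single 0 min arrays and 0.173 to the single other 240 min arrays. The 120 min arrays 1 and 2 were both at -12.2, beside array 3 labelled 240 min, and array 3 labelled 120 min was at 2.61, beside arrays 1 and 2 of 240 min. Each of these arrays 3 thus lay with the other time's arrays, and whether they had been exchanged was not tested. Both were kept under their labels, so every value with array 3 of 240 min rests on that label. Without array 3 of 240 min, 308 genes were higher (1.54%) and 990 lower (4.97%), and 569 of the 610 genes called with it were among them. Without array 1 or 2 of 240 min 200 and 205 genes were called, and without array 1, 2 or 3 of 0 min 212, 338 and 441. Because array 3 was set aside for lying apart, the spread within the time is narrowed by that choice, and the p-values without it may be too small.

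Array 3 took part in the calls, so the direction it shows over the called genes is set by that choice and is given as a description. The 73 higher genes had a median of 0.37, 0.36 and 0.23 above the 0 min mean on arrays 1, 2 and 3 of 240 min. The 537 lower genes had medians of -0.41, -0.42 and -0.27 on the same arrays. Array 3 was the 240 min array nearest to the 0 min mean for 48 of the higher and 395 of the lower genes. All 3 arrays of 240 min lay beyond all 3 arrays of 0 min for 72 of the 73 higher and 529 of the 537 lower genes. Among all 19938 genes, 1541 lay wholly above and 2219 wholly below.

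**Figure D1:**
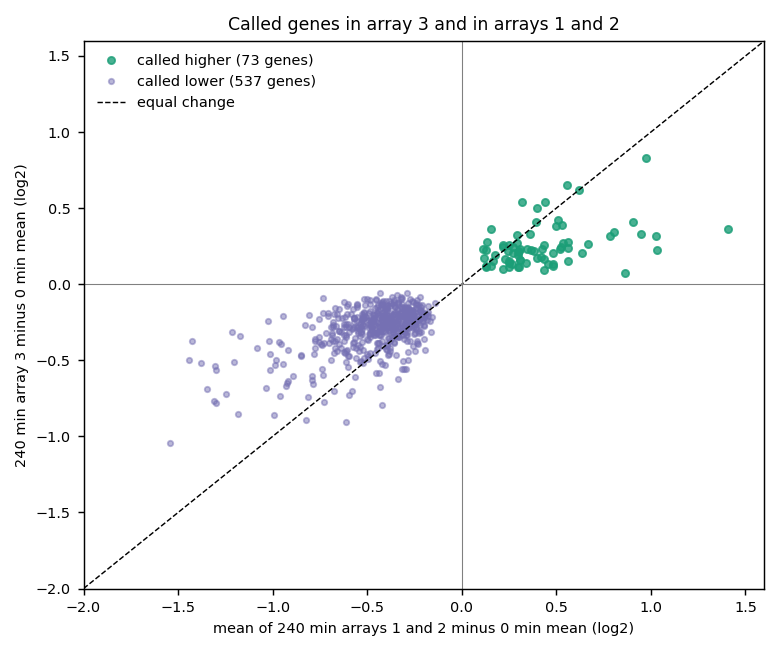
Difference from the 0 min mean on array 3 of 240 min (vertical axis) against the mean of arrays 1 and 2 of 240 min (horizontal axis), both on the log2 scale, for the 73 genes called higher and the 537 called lower. The dashed line marks equal change. Array 3 took part in the calls, which sets the direction of its points, and it was the 240 min array nearest to the 0 min mean for 48 of the higher and 395 of the lower genes.

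The steps next to 240 min depended on the arrays that lay apart. Between 240 min and 120 min limma called no gene with all arrays, where 1879 had an unadjusted p under 0.05, and none without array 3 of 240 min, where 2098 had. Without array 3 of both times, an alternative chosen after seeing the data, 225 genes were higher and 299 lower at 240 min than at 120 min. Between 360 min and 240 min, 848 genes were higher and 359 lower with all arrays. These counts were 220 and 60 without array 3 of 240 min, and 455 and 148 without array 3 of both 120 and 240 min.

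The largest falls were led by H2bc18 and Trappc5. H2bc18, a histone H2B gene, had log2 levels of 4.74, 4.78 and 5.26 on the 240 min arrays, against 6.79, 6.25 and 5.87 on the 0 min arrays. Trappc5, a subunit of the TRAPP complexes that tether transport vesicles, read 6.23, 6.04 and 6.68 at 240 min, against 7.45, 7.56 and 7.32 at 0 min. In both genes every 240 min array lay below every 0 min array, and array 3 was the 240 min array closest to 0 min. H2bc18 fell by 1.38 ± 0.16 (log2 difference and standard error, n = 3 arrays each, limma adjusted p = 0.000187) and Trappc5 fell by 1.13 ± 0.13 (adjusted p = 0.000187). Without array 3 the differences were -1.55 and -1.31. A second TRAPP subunit, Trappc13, fell by 0.32 ± 0.05 (adjusted p = 0.00279), which made 2 of 14 TRAPP genes lower, with a median over the 14 of -0.11. Without array 3, 4 of the 14 were lower. Of all genes 2.69% were lower with all arrays and 4.97% without array 3. The calls of Trappc5 and Trappc13 held whichever of the 6 arrays was left out.

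**Figure D2:**
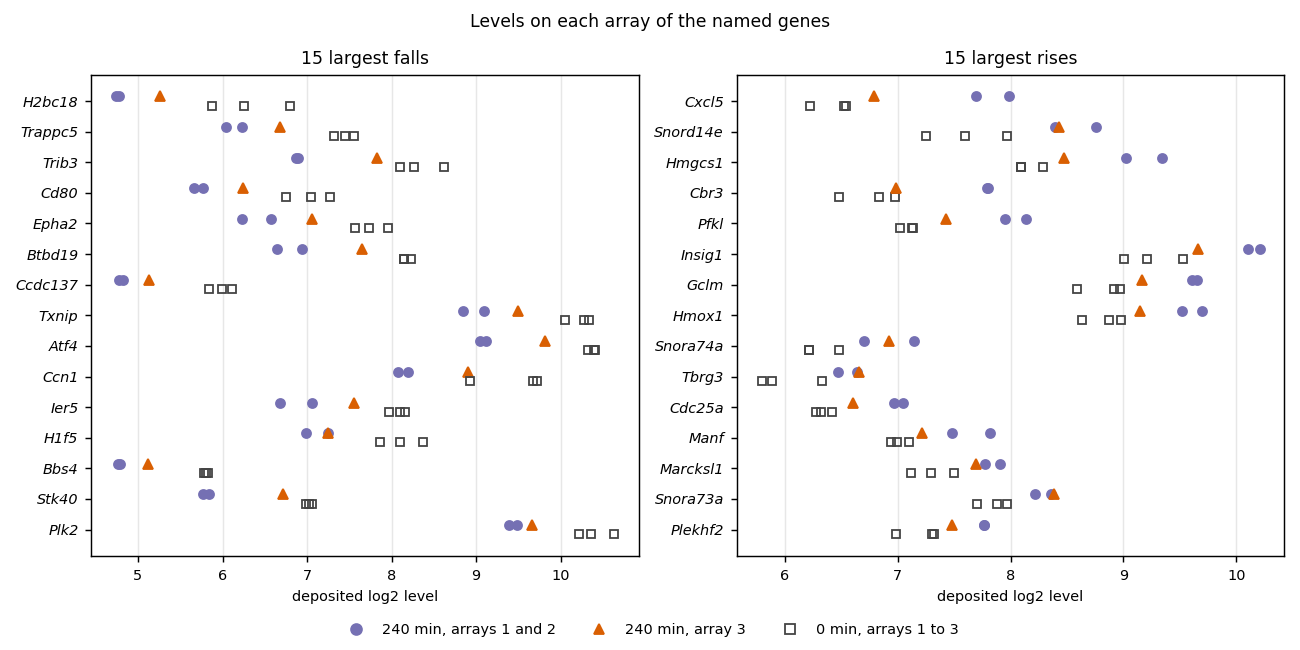
Deposited log2 levels (horizontal axis) of the 15 genes with the largest falls and the 15 with the largest rises among called genes whose groups did not overlap. Filled circles are arrays 1 and 2 of 240 min, triangles array 3 of 240 min, and open squares the 0 min arrays. The triangle lies between the circles and the squares for most genes, as for Trib3 and Cxcl5, and with the circles for H1f5, Snord14e, Snora74a, Tbrg3 and Snora73a.

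The 15 largest falls ranged from -1.38 (H2bc18) to -0.89 (Plk2). Besides those described with their groups below, they held Epha2, a receptor tyrosine kinase for ephrins (-1.13 ± 0.23, adjusted p = 0.00926), and Btbd19, a BTB domain gene (-1.09 ± 0.24, adjusted p = 0.0145). They also held Ccdc137, a coiled-coil gene, which read 4.82, 4.78 and 5.13 at 240 min, against 6.11, 5.99 and 5.85 at 0 min, and fell by 1.07 ± 0.14 (adjusted p = 0.000379). The calls of H2bc18, Trappc5, Ccdc137, Txnip, Atf4, Ier5, H1f5, Bbs4 and Plk2 held whichever of the 6 arrays was left out. The number of the 15 calls lost without arrays 1, 2 and 3 of 240 min was 5, 6 and 0, and without arrays 1, 2 and 3 of 0 min it was 6, 3 and 1 (adjusted p = 0.0536 to 0.168 for the lost calls). With the replicate block Stk40 was lost (adjusted p = 0.0613). Each fit without 1 array still shared its spread with the arrays of the other times. A fit of the 6 arrays alone lost 13 of the 15 calls, all but Ccdc137 and Bbs4 (adjusted p = 0.0536 to 0.154 for the lost calls).

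Several histone RNAs were lower, those of linker and of core histones. The chromosomal histone genes are transcribed mainly while DNA is copied, and linker histone H1 binds where DNA enters and leaves the nucleosome. Of 27 histone genes measured, 5 fell, beside 2.69% of all genes, and none rose. The median over the 27 was -0.21, beside 0.00101 over all genes. H1f5, a linker histone gene, read 6.98, 7.25 and 7.25 at 240 min, against 8.37, 8.10 and 7.86 at 0 min. Here array 3 lay with array 2, and the groups were separated by more than the spread within either. H1f5 fell by 0.95 ± 0.11 (adjusted p = 0.000217). H1f3, another linker gene, fell by 0.56 ± 0.10 (adjusted p = 0.00292), H2ac15, an H2A gene, by 0.41 ± 0.09 (adjusted p = 0.0165), and H3c4, an H3 gene, by 0.48 ± 0.12 (adjusted p = 0.0352). H1f2 (-0.80) and H4c4 (-0.83) had large differences that were not called (adjusted p = 0.122 for each). Without array 3, 10 of the 27 histone genes were lower, beside 4.97% of all genes. H1f2 (-1.01) and H4c4 (-1.20) were among the 10, and the median of the list was -0.30. The histone genes are near copies of each other, so a probe set may also read a neighbour's RNA. Many of them are dim: 11 of the 27 had a 0 min level of at least 6, and 8 a 240 min level of at least 6. When dim genes were left out of the fit, 2 of the 5 called histone genes were still tested, and both kept their calls. H2ac15 and H3c4 lost their calls without array 1 or 2 of 240 min or array 1 of 0 min, and H3c4 without array 2 of 0 min (adjusted p = 0.0680 to 0.200), and H3c4 with the replicate block (adjusted p = 0.0680).

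Targets of p53, the transcription factor that halts division after damage or stress, included 8 falls and no rise among 30 genes measured. Of all genes 2.69% fell. The median of the p53 list, -0.28, was the lowest of the lists described here. Plk2, a polo-like kinase, read 9.39, 9.49 and 9.66 at 240 min, against 10.63, 10.35 and 10.21 at 0 min, and fell by 0.89 ± 0.12 (adjusted p = 0.000379). Mdm2, the ubiquitin ligase that keeps p53 low, read 10.20, 10.23 and 10.78 at 240 min, against 11.19, 10.98 and 10.97 at 0 min. It fell by 0.64 ± 0.16 (adjusted p = 0.0313), and array 3 sat nearer to 0 min than to the other 240 min arrays. Cd80, which in immune cells is a ligand that co-stimulates T cells, fell by 1.13 ± 0.25 (adjusted p = 0.0156). Gadd45a, a growth arrest and DNA damage gene, fell by 0.83 ± 0.18 (adjusted p = 0.0158), and Polk, a polymerase that copies past damaged bases, by 0.82 ± 0.19 (adjusted p = 0.0220). Dglucy, a mitochondrial D-glutamate cyclase gene (-0.57), Xpc, the damage sensor of nucleotide excision repair (-0.27), and Sesn2 (-1.08) were the other falls. Sesn2, a sestrin that restrains the growth kinase mTORC1 when amino acids run short, overlapped between the groups, with 6.43, 6.23 and 7.38 at 240 min, against 8.28, 7.64 and 7.34 at 0 min.

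Without array 3, 15 of the 30 p53 genes were lower, beside 4.97% of all genes, and 1 was higher, beside 1.54%. Their median was -0.40. The added falls included Btg2, an antiproliferative gene (-1.31, adjusted p = 0.0212), and Trp53inp1, a p53 cofactor (-1.05, adjusted p = 0.0102). The 1 rise was Sesn1, the sestrin that FOXO factors also drive, at 1.03 (adjusted p = 0.00172), against 0.72 (adjusted p = 0.0693) with array 3. Of the 8 calls made with all arrays, Plk2 held whichever array was left out. Without arrays 1 and 2 of 240 min 7 and 6 were lost, and without arrays 1, 2 and 3 of 0 min 7, 5 and 2 (adjusted p = 0.0536 to 0.193), and the replicate block lost Mdm2, Sesn2 and Xpc (adjusted p = 0.0609 to 0.0772).

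The RNA for Atf4, the transcription factor through which cells answer amino acid shortage and other causes of eIF2 phosphorylation, was lower at 240 min, and so were some of its targets. Atf4 read 9.11, 9.04 and 9.82 at 240 min, against 10.41, 10.40 and 10.33 at 0 min. The 0 min arrays lay close together, and array 3 of 240 min lay between them and the other 240 min arrays. Atf4 fell by 1.05 ± 0.17 (adjusted p = 0.00188) and without array 3 by 1.30. Trib3, a pseudokinase that ATF4 induces and that binds ATF4, read 6.87, 6.90 and 7.83 at 240 min, against 8.62, 8.26 and 8.10 at 0 min, a fall of 1.13 ± 0.22 (adjusted p = 0.00790). Chac1, which breaks down glutathione, fell by 0.80 ± 0.19 (adjusted p = 0.0278), and Slc3a2, the heavy chain of several amino acid exchangers, by 0.31 ± 0.06 (adjusted p = 0.0100).

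Of the 38 genes listed for ATF4 and the amino acid response 5 fell, beside 2.69% of all genes, and none rose. A 0 min level of at least 6 was reached by 31 of the 38. With dim genes left out of the fit, 582 of 6873 genes were lower. Sesn2 was among the 5, and the median over the 38 was -0.19. Without array 3, 15 of the 38 were lower, beside 4.97% of all genes, and the median was -0.28. The added falls included Atf3, a stress-induced relative of ATF4 (-0.68, adjusted p = 0.0299), Nupr1, a small stress-induced nuclear protein (-0.62, adjusted p = 0.00214), and Mthfd2, a mitochondrial folate enzyme (-0.85, adjusted p = 0.00430). On array 3 itself Mthfd2 (8.29) and Nupr1 (9.16) were above every 0 min array. Among 20 aminoacyl-tRNA synthetase genes only Yars, for tyrosine, fell (-0.40 ± 0.11, adjusted p = 0.0468). Atf4 alone of the 5 kept its call whichever array was left out. The others were lost without array 1 of 240 min or array 1 of 0 min, 3 of them without array 2 of 240 min and Sesn2 without array 2 of 0 min (adjusted p = 0.0601 to 0.185), and the replicate block lost Chac1 and Sesn2 (adjusted p = 0.0553 and 0.0650) and Yars (adjusted p = 0.0865). Yars was also lost when any 1 array other than array 3 of 240 min was left out (adjusted p = 0.0559 to 0.204).

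The promoters of Trib3 and Chac1 are shown because ATF4 acts through a composite element, here searched as TGATGNAAN on both strands in RefSeq windows from 250 bases before to 50 bases after each gene's start (GRCm38.p6). The capitals mark the match, which starts 13 bases after the annotated start in Trib3 and 194 bases before it in Chac1, both read on the opposite strand.
Trib3, chr2:152344011-152344310 (- strand): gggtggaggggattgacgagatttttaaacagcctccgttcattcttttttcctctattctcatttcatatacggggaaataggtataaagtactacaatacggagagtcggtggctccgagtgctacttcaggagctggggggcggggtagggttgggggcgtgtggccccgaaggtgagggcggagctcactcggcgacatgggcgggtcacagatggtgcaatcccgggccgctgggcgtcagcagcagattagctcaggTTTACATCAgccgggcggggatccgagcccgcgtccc
Chac1, chr2:119350992-119351291 (+ strand): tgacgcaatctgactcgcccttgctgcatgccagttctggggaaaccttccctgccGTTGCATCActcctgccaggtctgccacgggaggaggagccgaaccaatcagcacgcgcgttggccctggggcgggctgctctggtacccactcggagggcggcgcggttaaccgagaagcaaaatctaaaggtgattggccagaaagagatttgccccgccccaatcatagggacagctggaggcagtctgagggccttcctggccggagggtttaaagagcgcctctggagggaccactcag
The pattern was present in 3.95% of all 32851 promoter windows and, counted per gene, in 4.5% of the 27025 genes with a window. It was present in 10 of the 33 listed genes that had a window. Among the 14 of these genes called with or without array 3 it was present in 5, which were Atf3, Chac1, Nupr1, Slc1a4 and Trib3. Across all windows 22 of the 6630 matches of the 4 patterns searched in this text overlapped a match of another pattern. A match is a description of the letters and was not tested as a binding site.

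Some genes of growth arrest and of nutrient sensing were lower as well. Txnip, an arrestin-domain protein that limits glucose uptake and binds thioredoxin, read 9.10, 8.85 and 9.50 at 240 min, against 10.34, 10.05 and 10.27 at 0 min. It fell by 1.07 ± 0.15 (adjusted p = 0.000567), with no overlap between the groups. Rassf1, a tumour suppressor gene, read 5.46, 5.41 and 5.32 at 240 min, against 6.04, 5.98 and 6.04 at 0 min, and fell by 0.62 ± 0.09 (adjusted p = 0.000551). In Rassf1 array 3 was the lowest of the 240 min arrays. Gadd45g, a relative of Gadd45a, fell by 0.83 ± 0.18 (adjusted p = 0.0123), and Stk40, a kinase-like gene, by 0.92 ± 0.23 (adjusted p = 0.0318). Of the 32 genes in this list 5 fell, Gadd45a among them, and none rose, but the median was -0.01. Without array 3 the list had 4 higher and 7 lower members. Of all genes 2.69% fell with all arrays, and 1.54% were higher and 4.97% lower without array 3. Txnip and Rassf1 held whichever array was left out. Gadd45a and Stk40 were lost without any 1 of arrays 1 and 2 of 240 min and arrays 1 and 2 of 0 min, Gadd45g without array 2 of 240 min or array 1 of 0 min, and Stk40 without array 3 of 0 min (adjusted p = 0.0504 to 0.168).

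Immediate early genes are switched on by serum and growth factors within minutes. Of 36 measured, 4 fell and 2 rose, beside 2.69% and 0.366% of all genes, with a median of -0.02. Ier5, an early gene linked to heat shock factor, read 7.06, 6.67 and 7.56 at 240 min, against 8.16, 8.09 and 7.97 at 0 min, and fell by 0.97 ± 0.14 (adjusted p = 0.000923). Ccn1, a secreted matricellular protein and a target of the YAP coactivator, read 8.19, 8.08 and 8.90 at 240 min, against 9.72, 9.68 and 8.92 at 0 min. Array 3 of 240 min and array 3 of 0 min nearly met for Ccn1, which fell by 1.05 ± 0.22 (adjusted p = 0.0117). Jun, a subunit of AP-1, also fell (-0.43 ± 0.08, adjusted p = 0.00868), as did Klf6, a zinc finger factor (-0.44 ± 0.10, adjusted p = 0.0160). Nr4a2, an orphan nuclear receptor (0.24), and Ier5l (0.18) rose at low levels. The call of Ier5 held whichever array was left out. All 5 others were lost without array 1 or 2 of 240 min, and without arrays 1, 2 and 3 of 0 min 4, 4 and 2 were lost (adjusted p = 0.0521 to 0.156), Ier5l without array 3 of 240 min (adjusted p = 0.0555), and Ier5l and Nr4a2 with the replicate block (adjusted p = 0.0745 and 0.0857).

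Among other genes that YAP or the serum response factor drives, Amotl2, an angiomotin that binds YAP, read 8.82, 8.79 and 8.66 at 240 min, against 9.30, 9.29 and 9.14 at 0 min, and fell by 0.49 ± 0.09 (adjusted p = 0.00367). Nppb, the natriuretic peptide gene, fell by 0.59 ± 0.10 (adjusted p = 0.00221). These were 2 of 18 genes in the contractile and cytoskeletal list, beside 2.69% of all genes lower. The median of the list was -0.03, and both calls held whichever array was left out. Ankrd1, a muscle ankyrin repeat gene that YAP drives in fibroblasts, read 6.99, 6.88 and 8.14 at 240 min, against 8.37, 8.37 and 7.97 at 0 min. It was at -0.90 with array 3 (adjusted p = 0.0801) and was called without it at -1.30 (adjusted p = 0.00213). The same held for Ccn2, a relative of Ccn1, at -0.78 (adjusted p = 0.0929) with array 3 and -1.14 (adjusted p = 0.00246) without it. Among 20 genes for feedback on MAP kinases, Spry1 (-0.35) and Dusp16 (-0.41) fell and Dusp1 rose (0.32), where 2.69% of all genes fell and 0.366% rose. All 3 calls were lost when any 1 array other than array 3 of 240 min was left out (adjusted p = 0.0583 to 0.244) and with the replicate block (adjusted p = 0.0670 to 0.0823).

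Some RNAs for factors that build ribosomes were lower, by small amounts. Of 58 measured, 8 fell, beside 2.69% of all genes, and none rose, with a median of -0.12. These genes are bright, 57 of the 58 having a 0 min level of at least 6. With dim genes left out of the fit, 582 of 6873 genes were lower, with a median of -0.0395. Nmd3, which escorts the large subunit out of the nucleus, read 9.11, 9.22 and 9.71 at 240 min, against 9.78, 9.98 and 9.94 at 0 min, and fell by 0.55 ± 0.13 (adjusted p = 0.0230). Gtpbp4, a GTPase of large subunit assembly, fell by 0.38 ± 0.08 (adjusted p = 0.0108), and Utp15, of the small subunit processome, by 0.31 ± 0.06 (adjusted p = 0.00915). The other 5 falls, from -0.28 to -0.21, were Tsr1, Bop1, Noc4l, Utp4 and Nop14. Without array 3, 18 of the 58 were lower, beside 4.97% of all genes, with a median of -0.19. In the list of 29 translation factors, all with a 0 min level of at least 6, 3 fell and none rose. Eif3d, a subunit of eIF3, fell by 0.32 ± 0.06 (adjusted p = 0.00662), Eif2b5, the catalytic subunit of the exchange factor for eIF2, by 0.27 ± 0.06 (adjusted p = 0.0201), and Eif6, which keeps the subunits from joining too early, by 0.32 ± 0.08 (adjusted p = 0.0251). No ribosome factor held its call through every left-out array. Without arrays 1, 2 and 3 of 240 min 8, 7 and 1 were lost, and without each of arrays 1, 2 and 3 of 0 min 6 were lost (adjusted p = 0.0509 to 0.203), and the replicate block lost 5 (adjusted p = 0.0590 to 0.0776). Eif6 was lost with the block (adjusted p = 0.0527), and each of the 3 translation factors without at least 1 array (adjusted p = 0.0513 to 0.135).

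Genes whose symbol starts with Zfp, most of which encode zinc finger proteins, accounted for 45 of the 537 falls. This group and those of the next paragraph were picked once their values were known, so their counts are a description. Of 347 Zfp genes, 45 were lower (13.0%) and none higher, where 2.69% of all genes were lower, and 244 of the 347 differences were below 0. Their median difference was -0.07, with -0.10, -0.05 and -0.06 on arrays 1, 2 and 3 of 240 min. Many of them are dim: 93 of the 347 had a 0 min level of at least 6. Zfp113 read 6.02, 6.14 and 6.53 at 240 min, against 7.04, 7.01 and 7.23 at 0 min, with array 3 of 240 min nearest to 0 min. Zfp113 fell by 0.86 ± 0.13, Zfp719 by 0.79 ± 0.10 and Zfp948 by 0.58 ± 0.07. Zfp719 read 6.86, 6.82 and 6.91 at 240 min, against 7.75, 7.53 and 7.68 at 0 min. Zinc finger genes share sequence, and probe sets may read related RNAs. Without array 3 the lower Zfp genes numbered 60, with the replicate block 33, and 18 of the 45 held whichever array was left out. Lost calls numbered 24, 22 and 1 without arrays 1, 2 and 3 of 240 min, and 20, 14 and 11 without arrays 1, 2 and 3 of 0 min (adjusted p = 0.0511 to 0.229).

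**Figure D3:**
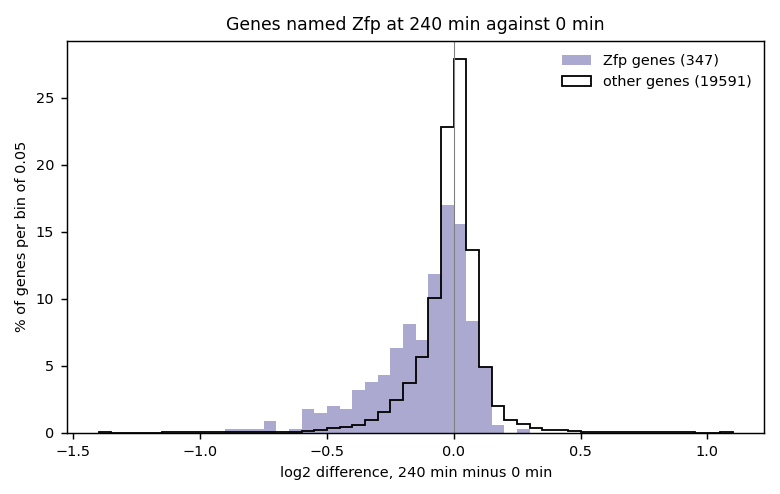
Log2 difference, 240 min minus 0 min (horizontal axis), of the 347 Zfp genes (filled) and of the 19591 other genes (line), as a percentage of each set per bin of 0.05 (vertical axis). The Zfp genes have a longer tail to the left, and none was called higher.

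A few other small families had several members among the falls, where 2.69% of all genes were lower. Of 11 Zkscan genes, which join the SCAN and KRAB domains to zinc fingers, 4 were lower, led by Zkscan1 (-0.63 ± 0.09, adjusted p = 0.000678). Of 8 genes for the Bardet-Biedl proteins, which carry cargo into and out of cilia, 3 were lower. Bbs4 read 4.76, 4.78 and 5.12 at 240 min, against 5.82, 5.80 and 5.78 at 0 min, and fell by 0.92 ± 0.11 (adjusted p = 0.000243). Bbs10 fell by 0.50 (adjusted p = 0.0123) and Bbs1 by 0.45 (adjusted p = 0.00495). Both were dim, averaging 4.52 and 4.59 at 240 min, and 2 of the 8 genes had a 0 min level of at least 6. Of 13 Eph receptor genes 3 were lower, namely Epha2, Epha4 (-0.90, adjusted p = 0.0376) and Ephb3 (-0.71, adjusted p = 0.00284). The median over the 13 Eph receptors was -0.0011. The calls of Zkscan1, Zkscan3, Bbs4, Bbs1 and Ephb3 held whichever array was left out. Epha4, Zkscan5 and Zkscan8 were lost without array 1 or 2 of 240 min or array 1 of 0 min (adjusted p = 0.0839 to 0.189), Epha2 without array 2 of 240 min or array 1 of 0 min (adjusted p = 0.0709 and 0.0627) and Bbs10 without array 1 or 2 of 240 min or array 1 of 0 min (adjusted p = 0.0524 to 0.0678). Epha4 and Zkscan5 were also lost without array 2 of 0 min (adjusted p = 0.106 and 0.132) and with the replicate block (0.0710 and 0.0673), and Zkscan8 without array 3 of 0 min (adjusted p = 0.0622).

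The rises were fewer. Cxcl5, Snord14e and Hmgcs1 led them. The 15 largest rises ranged from 1.06 (Cxcl5) to 0.47 (Plekhf2), and only that of Snora74a held whichever of the 6 arrays was left out. Without arrays 1, 2 and 3 of 240 min 14, 14 and 1 of the 15 calls were lost, and without arrays 1, 2 and 3 of 0 min 14, 13 and 6 (adjusted p = 0.0509 to 0.227). The replicate block lost 9 of the 15 (adjusted p = 0.0512 to 0.0879). A fit of the 6 arrays alone lost all 15, Snora74a among them (adjusted p = 0.0661 to 0.203). Over all genes, 4 rises and 139 falls held whichever array was left out. Narf, named for its product's binding to prelamin A, read 7.66, 7.57 and 6.57 at 240 min, against 6.42, 6.26 and 6.53 at 0 min, a difference of 0.86 ± 0.23 (adjusted p = 0.0500337, just past the limit). Without array 3 it was called, at 1.21 (adjusted p = 0.00130).

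Cxcl5, a chemokine that draws neutrophils, had the largest rise. It read 7.98, 7.69 and 6.79 at 240 min, against 6.22, 6.53 and 6.54 at 0 min. Every 240 min array was above every 0 min array, and array 3 lay close to 0 min. Cxcl5 rose by 1.06 ± 0.25, or 2.08-fold (adjusted p = 0.0263), and without array 3 by 1.41, or 2.65-fold (adjusted p = 0.00122). It was the only 1 of 24 genes listed for chemokines, interleukin 6 and NF-kB targets that was called, where 0.366% of all genes rose. The median over the 24 was -0.06. The call of Cxcl5 was lost without any 1 array other than array 3 of 240 min (adjusted p = 0.0509 to 0.171) and with the replicate block (adjusted p = 0.0528).

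Sterol synthesis genes, which SREBP2 drives when membranes run low in cholesterol, included 2 of the larger rises. Hmgcs1, which makes the HMG-CoA that enters the mevalonate pathway, read 9.35, 9.02 and 8.47 at 240 min, against 8.09, 8.09 and 8.29 at 0 min, and rose by 0.79 ± 0.19 (adjusted p = 0.0279). Insig1, the membrane protein that holds SREBP back when sterols suffice and is itself an SREBP target, read 10.21, 10.11 and 9.66 at 240 min, against 9.01, 9.21 and 9.53 at 0 min, and rose by 0.74 ± 0.17 (adjusted p = 0.0178). In both genes array 3 was the lowest of the 240 min arrays and still above all 0 min arrays. These were the 2 called among 27 sterol genes, with a median of 0.18, where 0.366% of all genes rose. Without array 3, 9 of the 27 were higher, beside 1.54% of all genes, and none lower, with a median of 0.26. Idi1, the isomerase of the pathway (0.74, adjusted p = 0.0417), Cyp51, which demethylates lanosterol (0.55, adjusted p = 0.0333), and Nsdhl, a later step (0.49, adjusted p = 0.00805), were among the 7 added. Of 19 genes of fatty acid synthesis none was called with all arrays, and 5 were higher without array 3, led by Scd2, a desaturase, at 0.83 (adjusted p = 0.00102). Hmgcs1 and Insig1 lost their calls without array 1 or 2 of either time (adjusted p = 0.0650 to 0.181), and Hmgcs1 with the replicate block (adjusted p = 0.0553).

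The Hmgcs1 promoter is shown for a match to a sterol response element, searched as TCACNCCAC on both strands in the same RefSeq windows. It starts 137 bases before the annotated start.
Hmgcs1, chr13:119690101-119690400 (+ strand): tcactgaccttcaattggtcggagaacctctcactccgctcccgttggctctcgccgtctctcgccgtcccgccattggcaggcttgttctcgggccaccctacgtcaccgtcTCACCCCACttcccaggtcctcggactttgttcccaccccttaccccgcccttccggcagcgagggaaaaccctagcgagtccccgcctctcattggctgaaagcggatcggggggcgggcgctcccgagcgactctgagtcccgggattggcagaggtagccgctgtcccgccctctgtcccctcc
The pattern was present in 1.24% of all promoter windows and, counted per gene, in 1.44% of all genes with a window. Hmgcs1 was the only holder among the 21 sterol genes with a window, and the window of Insig1 had no match.

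Targets of NRF2, the factor that turns on antioxidant and detoxifying genes, included 4 rises and no fall among 29 genes, with a median of 0.09. Of all genes 0.366% rose. Gclm, the modifier subunit of the enzyme that starts glutathione synthesis, read 9.60, 9.65 and 9.17 at 240 min, against 8.59, 8.97 and 8.92 at 0 min. It rose by 0.65 ± 0.16 (adjusted p = 0.0334). Hmox1, the inducible haem oxygenase, read 9.70, 9.52 and 9.14 at 240 min, against 8.63, 8.98 and 8.88 at 0 min, and rose by 0.63 ± 0.16 (adjusted p = 0.0328). Cbr3, a carbonyl reductase, rose by 0.76 ± 0.21 (adjusted p = 0.0483), with array 3 at 6.99 barely above the highest 0 min array at 6.98. Srxn1, which repairs oxidised peroxiredoxins, rose by 0.39 ± 0.10 (adjusted p = 0.0379). Without array 3, 7 were higher and 1 lower, beside 1.54% and 4.97% of all genes. Nqo1, a quinone reductase, read 7.74, 7.78 and 6.61 at 240 min, against 6.46, 6.74 and 6.76 at 0 min, so that array 3 lay among the 0 min arrays, and it was at 1.10 without array 3 (adjusted p = 0.00402). The gene of NRF2 itself, Nfe2l2, was the lower member, at -0.28 without array 3 (adjusted p = 0.0116). All 4 calls were lost without array 1 or 2 of 240 min or array 1 or 3 of 0 min, 3 without array 2 of 0 min (adjusted p = 0.0536 to 0.225), and all 4 with the replicate block (adjusted p = 0.0641 to 0.0879).

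The Gclm promoter is shown for a match to the core of the antioxidant response element, searched as TGACNNNGC on both strands. The match lies on the opposite strand and starts 134 bases before the annotated start.
Gclm, chr3:122245307-122245606 (+ strand): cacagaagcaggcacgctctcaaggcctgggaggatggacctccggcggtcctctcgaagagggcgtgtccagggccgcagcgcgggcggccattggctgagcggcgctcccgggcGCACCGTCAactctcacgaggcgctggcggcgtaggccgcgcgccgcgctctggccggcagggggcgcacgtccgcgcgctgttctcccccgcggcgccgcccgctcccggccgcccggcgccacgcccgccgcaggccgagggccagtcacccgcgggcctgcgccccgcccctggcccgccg
This short core was present in 12.4% of all promoter windows and, counted per gene, in 14.0% of all genes with a window. It was present in 9 of the 24 NRF2 targets with a window. The windows of Cbr3 and Nqo1 had no match.

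Among genes of glycolysis and hypoxia, Pfkl, the liver-type phosphofructokinase, was the 1 of 34 that was called, where 0.366% of all genes rose. It read 8.14, 7.95 and 7.42 at 240 min, against 7.02, 7.13 and 7.13 at 0 min, and rose by 0.74 ± 0.19 (adjusted p = 0.0334). Of 26 genes for folding in the endoplasmic reticulum, Manf, a secreted protein induced when folding is strained, rose by 0.49 ± 0.13 (adjusted p = 0.0380), and the median over the 26 was 0.12. Without array 3, 10 of these were higher and 1 lower, beside 1.54% and 4.97% of all genes, with a median of 0.22. They included Dnajb9, a co-chaperone (1.17, adjusted p = 0.00639), and the lumenal chaperones Hspa5 (0.47, adjusted p = 0.00823) and Calr (0.41, adjusted p = 0.0202). On array 3 Dnajb9 read 5.65, inside the range of the 0 min arrays, and on arrays 1 and 2 it read 6.93 and 6.60. Hspa1a, an inducible heat shock protein gene, was the only called member of 23 heat shock genes, at 0.24. Without array 3, 7 of those 23 were higher and 1 lower. The calls of Pfkl and Manf were lost without any 1 array other than array 3 of 240 min (adjusted p = 0.0675 to 0.227), that of Hspa1a without array 1 or 2 of either time (adjusted p = 0.127 to 0.220), and all 3 with the replicate block (adjusted p = 0.0650 to 0.0919).

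Few genes for entry into S phase were called with all arrays. Cdc25a, the phosphatase that frees the kinases of G1 and S phase, read 6.96, 7.04 and 6.60 at 240 min, against 6.27, 6.32 and 6.42 at 0 min, and rose by 0.53 ± 0.12 (adjusted p = 0.0163). Of 64 genes that act in the G1/S transition or copy DNA, only E2f7, a repressor of the E2F family, was called. It rose by 0.60 ± 0.16 (adjusted p = 0.0485), although array 3 (6.32) lay within the 0 min range. The median over the 64 was 0.21, beside 0.00101 over all genes, of which 0.366% rose. Without array 3, 11 were higher, beside 1.54% of all genes, and none lower, and the median was 0.27. Cdc6, which loads the replicative helicase, was then at 1.18 (adjusted p = 0.0168), Chaf1b, a subunit of the histone chaperone CAF-1, at 1.02 (adjusted p = 0.0183), and Ccne1, which encodes cyclin E1, at 0.94 (adjusted p = 0.00343). Pcna, the replication clamp, was at 0.57 (adjusted p = 0.0262). Cdc6 read 5.63, 5.88 and 4.69 at 240 min, against 4.80, 4.42 and 4.51 at 0 min, so that only arrays 1 and 2 were above 0 min. Of 35 genes of G2 and mitosis, only Kif23, a kinesin of cell cleavage, was called, at -0.28, where 2.69% of all genes fell. The median over the 35 was -0.12. Cdc25a was lost without array 1 or 2 of either time (adjusted p = 0.0582 to 0.107), E2f7 without any 1 array other than array 3 of 240 min (adjusted p = 0.0844 to 0.236) and with the replicate block (0.0884), and Kif23 without array 2 or 3 of 240 min or array 1 or 3 of 0 min (0.0770 to 0.174) and with the block (0.0703).

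The Cdc25a promoter is shown for a match to the site of E2F factors, which drive the genes of S phase, searched as TTTNGCGC on both strands. It starts 67 bases before the annotated start.
Cdc25a, chr9:109875329-109875628 (+ strand): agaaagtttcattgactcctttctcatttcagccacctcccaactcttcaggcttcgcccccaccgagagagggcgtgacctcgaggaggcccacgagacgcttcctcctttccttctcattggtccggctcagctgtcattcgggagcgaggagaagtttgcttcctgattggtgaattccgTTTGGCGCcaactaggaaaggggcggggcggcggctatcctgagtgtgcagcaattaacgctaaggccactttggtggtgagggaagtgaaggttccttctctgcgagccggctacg
The pattern was present in 1.38% of all promoter windows and, counted per gene, in 1.57% of all genes with a window. It was present in 16 of the 53 G1/S genes with a window. Cdc25a is not in that list and is not counted among the 16. Among the listed genes called with or without array 3, Dtl, Mcm6 and Orc1 held it, and the windows of E2f7 and Ccne1 had no match.

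Polycomb genes split. Cbx2 and Cbx8, which encode readers of methylated histone H3 in the repressive complex PRC1, rose by 0.38 ± 0.09 (adjusted p = 0.0188) and 0.43 ± 0.10 (adjusted p = 0.0195). Ezh1, a histone methyltransferase, fell by 0.26 ± 0.07 (adjusted p = 0.0328) and Ring1, a ubiquitin ligase of PRC1, by 0.21 ± 0.05 (adjusted p = 0.0401). The other 16 of the 20 listed were not called. Of all genes 0.366% rose and 2.69% fell. All 4 calls were lost without array 1 or 2 of 240 min or array 1 of 0 min, Cbx8 and Ring1 without array 2 and Ezh1 without array 3 of 0 min (adjusted p = 0.0534 to 0.195), and Ezh1 and Ring1 with the replicate block (adjusted p = 0.0659 and 0.0798).

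Small nucleolar RNAs guide the modification and cleavage of ribosomal RNA, and most lie in introns of host genes. Of 52 such genes, 4 rose (7.69%, where 0.366% of all genes rose) and none fell, with a median of 0.13, a group picked once its values were known. The medians on arrays 1, 2 and 3 of 240 min were 0.07, 0.11 and 0.20, the largest on array 3. A probe set for such a gene may also read its host transcript. Snora74a read 7.15, 6.70 and 6.92 at 240 min, against 6.22, 6.21 and 6.48 at 0 min, and rose by 0.62 ± 0.10 (adjusted p = 0.00144). Snord14e read 8.76, 8.40 and 8.43 at 240 min, against 7.25, 7.59 and 7.97 at 0 min, and rose by 0.93 ± 0.22 (adjusted p = 0.0236). Array 3 lay with the other 240 min arrays in both. Snora73a (0.47) and Snora73b (0.40) were the others, and as they are near copies their probe sets may read both. The call of Snora74a held whichever array was left out. The others were lost without array 1 or 2 of either time (adjusted p = 0.0514 to 0.169), and Snora73b with the replicate block (adjusted p = 0.0586).

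Of 300 microRNA genes 1 rose (0.333%, beside 0.366% of all genes) and 3 fell (1.0%, beside 2.69%), so these shares were no higher than among all genes. All 4 moved by little, at levels near the low end of the scale. These arrays label long RNA, so a probe set for a microRNA gene reads precursor or host transcripts and not the mature microRNA. Mir221 read 4.30, 4.20 and 4.25 at 240 min, against 4.56, 4.52 and 4.58 at 0 min, and fell by 0.31 ± 0.06 (adjusted p = 0.00928). Mir34a, a known p53 target, fell by 0.19 ± 0.04 (adjusted p = 0.0150), and Mir181b-1 by 0.18 ± 0.05 (adjusted p = 0.0477). Mir15b read 5.18, 5.14 and 5.02 at 240 min, against 4.79, 4.90 and 4.70 at 0 min, and rose by 0.32 ± 0.08 (adjusted p = 0.0259). The 240 min and 0 min arrays did not overlap in any of the 4. The same held for 72 of the 73 genes called higher and 529 of the 537 called lower. Over all 19938 genes it held for 1541 above and 2219 below. The main mature products are shown from RefSeq (GRCm38.p6), with the seed, bases 2 to 8, in capitals. No 2 of the 4 share a seed.
mmu-miR-221-3p: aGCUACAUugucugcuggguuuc
mmu-miR-34a-5p: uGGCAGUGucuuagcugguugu
mmu-miR-181b-5p: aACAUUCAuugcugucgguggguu
mmu-miR-15b-5p: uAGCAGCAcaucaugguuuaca
All 4 calls were lost without array 2 of 240 min, Mir15b and Mir181b-1 without array 1 of 240 min, and Mir181b-1 without array 3 of 240 min. Mir15b, Mir181b-1 and Mir34a were lost without array 1 or 3 of 0 min and Mir181b-1 without array 2 of 0 min (adjusted p = 0.0513 to 0.220 over these settings), and the replicate block lost Mir15b (adjusted p = 0.0540) and Mir181b-1 (adjusted p = 0.0932).

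The genes of polyamine metabolism themselves were close to their 0 min levels. Odc1, for ornithine decarboxylase, averaged 9.83 at 240 min and 9.82 at 0 min, and its difference was 0.01 ± 0.07 (adjusted p = 0.979). Of 22 genes for polyamine enzymes, antizymes, their inhibitors, transport and hypusine, Slc3a2, which some cells also use in polyamine export, was the only member called. Its fall is given with the ATF4 genes. The differences of all 22 lay between -0.31 and 0.25, with a median of 0.01. Without array 3, 3 of the 22 were lower, among them Azin1, the antizyme inhibitor (-0.32, adjusted p = 0.0457). Of all genes 2.69% were lower with all arrays and 4.97% without array 3. The Slc3a2 call was lost without array 1 of 240 min (adjusted p = 0.0643) or array 1 of 0 min (adjusted p = 0.0758).

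Other lists had few or no calls. None of 28 collagen and matrix genes, 27 genes of the response to TGF-beta, activin and BMP, 16 interferon-stimulated genes or 34 proteasome subunits was called with all arrays. Their medians lay between -0.05 and 0.05. Without array 3, 1 gene of the TGF-beta list was higher and 3 were lower, with Fst, the activin antagonist follistatin, at -1.24 (adjusted p = 0.00347). In the proteasome list 2 were then higher and 1 lower, and the matrix and interferon lists had 0 calls. Of all genes 1.54% were higher and 4.97% lower without array 3, and 2.69% were lower with all arrays. Single falls were those of Bhlhe41 among 18 clock genes (-0.36, adjusted p = 0.0112), Plau among 19 genes of matrix proteases (-0.60, adjusted p = 0.0363), Fgfr2 among 28 of growth factors and receptors (-0.29, adjusted p = 0.0339) and Srsf3 among 22 of splicing (-0.32, adjusted p = 0.0334). Flcn, whose product folliculin signals nutrient state at the lysosome (-0.45), and Sqstm1, an autophagy receptor (-0.21), were the 2 falls among 32 lysosome and autophagy genes. All 6 of these calls were lost without array 1 or 2 of 240 min (adjusted p = 0.0658 to 0.190) and without array 1 or 2 of 0 min (adjusted p = 0.0535 to 0.143). Those of Plau, Srsf3, Flcn and Sqstm1 were also lost without array 3 of 0 min (adjusted p = 0.0839 to 0.123), and 5 of the 6, all but Bhlhe41, with the replicate block (adjusted p = 0.0594 to 0.0692).

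**Figure D4:**
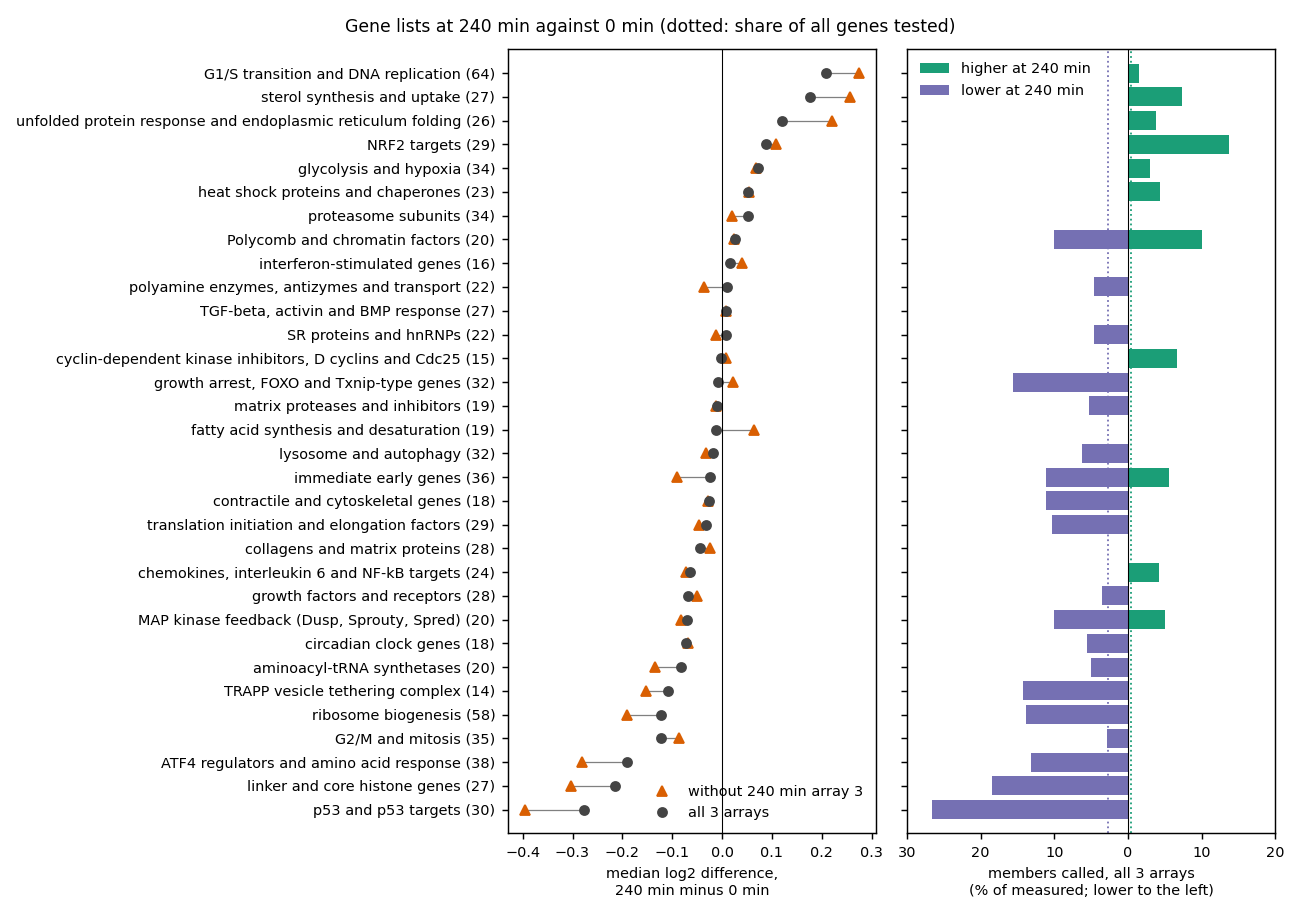
Left, median log2 difference, 240 min minus 0 min, over the measured members of each list (number in brackets), with all 3 arrays (circles) and without array 3 of 240 min (triangles). Right, percentage of members called lower (to the left) and higher (to the right) with all arrays, and dotted lines at the shares of all genes tested, 2.69% and 0.366%. The p53, histone and ATF4 lists have the lowest medians and the G1/S and sterol lists the highest, and leaving array 3 out moves each of these further from 0.

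The 6 genes followed through all 8 times show where 240 min stood in the course. Array 3 of 120 min and of 240 min stand at their labelled times here. Atf4 averaged 10.38, 10.44, 10.26, 9.44, 9.32, 9.04, 8.99 and 9.05 at the 8 times from 0 min to 600 min. Txnip averaged 10.22 at 0 min, 9.64 at 60 min, 9.15 at 240 min and 9.18 at 600 min. Both genes stayed well below their 0 min level to the end of the course. H1f5 averaged 8.11 at 0 min, 6.82 at 60 min, 7.16 at 240 min and 9.20 at 600 min, so that at 240 min it was already above its lowest level and later passed its 0 min level. Insig1 averaged 9.25 at 0 min, 9.99 at 240 min and 11.81 at 600 min. It was higher at 360 min than at 240 min by 1.09 (adjusted p = 0.00107). Gclm was at 8.82 at 0 min, 9.47 at 240 min and 10.01 at 360 min, and its step between 240 and 360 min was not called (0.54, adjusted p = 0.0556). Cdc6 averaged 4.58 at 0 min and 7.16 at 360 min, and it was higher at 360 min than at 240 min by 1.76 (adjusted p = 0.00201). The 240 min mean came with an SD of 0.43 at 240 min and 0.04 at 0 min for Atf4.

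**Figure D5:**
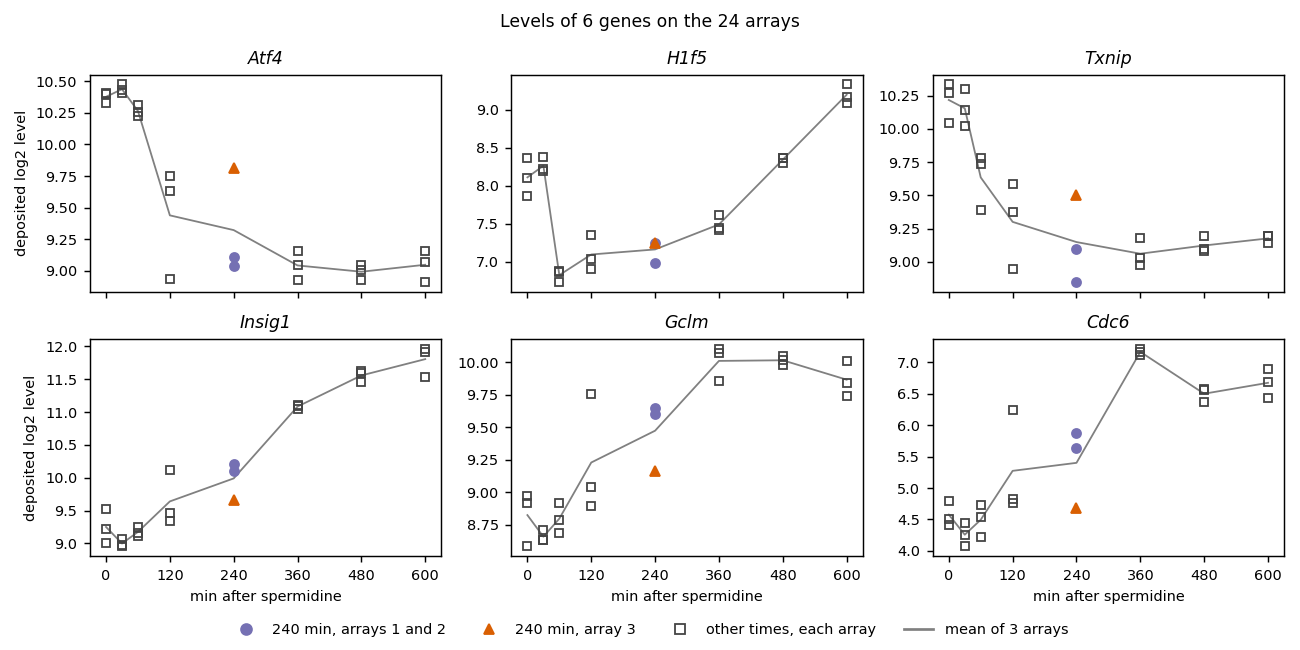
Deposited log2 levels (vertical axis) of 6 genes against min after spermidine (horizontal axis). Circles are arrays 1 and 2 of 240 min, triangles array 3 of 240 min, open squares all other arrays, and the line joins the means of 3 arrays. The triangle lies toward the 0 min side for Atf4, Txnip, Insig1, Gclm and Cdc6, and at the level of the circles for H1f5.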

How the data were processed

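The deposited log2 values came from Affymetrix mouse gene arrays that were, per the submitters' processing notes, normalized by RMA in Partek, with versions not given in the sources used here. RMA takes background off, equalises the arrays' distributions and sums the probes of a probe set, so a change shared by all RNAs is not seen. The log2 scale was inferred from the values. Of 35399 probe sets, 21789 had 1 gene symbol, 1621 several and 11989 none in the platform annotation, and only those with 1 symbol were used, with the probe set of highest mean over all arrays for each of the 999 genes that had several. No symbol needed an update from RefSeq, and 83 symbols had no RefSeq match and were kept. Array medians were 4.4 to 4.45. With 3 arrays per time, a typical difference carried a standard error of 0.0567 (the median over genes), or a 95% half-width of 0.118.

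A model of 8 time means was fitted to all 24 arrays with limma 3.58.1 (lmFit and eBayes) in R 4.3.3, and every adjusted p comes from its contrast of 240 min and 0 min, unless another pair of times is named, with Benjamini-Hochberg adjustment over 19938 genes and 0.05 as the limit. The spread is shared by all times, with 16 residual and 3.48 prior degrees of freedom. Settings without a named array left it out of the whole fit. Means of the 3 replicate numbers over the 8 times differed by at most 8.75e-05 for any gene, so their effect had been removed before deposit. A fit with replicate number as a block, which counts that loss (14 residual degrees of freedom), is given beside the results whose call it ends. The genes named were taken from the 15 largest called rises and 15 largest called falls whose arrays did not overlap between the times, the 10 largest of each by the same rule without array 3 of 240 min, and up to 6 members of each list by smallest p in each of the 2 fits, with gene models passed over. The members and lists were chosen with earlier results of these data known, and the Zfp, Zkscan, Bardet-Biedl, Eph, small nucleolar RNA and microRNA families, outside the rule, once their values were known. The fit was tested on simulated data with independent noise. These had neither a removed replicate effect nor an array lying apart, so the test cannot show whether the p-values here are too small.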

Additional observations from a re-analysis of the deposited data

How the results depend on the processing

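With 610 genes called (73 higher and 537 lower), leaving out 1 of the 6 arrays gave 200 to 1298 calls, 10 to 308 higher and 188 to 990 lower. Without array 3 of both 120 and 240 min there were 1663 (492 higher, 1171 lower), of which 583 were among the 610. Array weights, which gave array 3 of 240 min 0.493 against 1.1 and 1.13 for the others, made 1283 calls (271 higher, 1012 lower). The 6 arrays alone, with few degrees of freedom, made 32 calls (3 higher, 29 lower). Same-numbered deviations from the means of the 2 times correlated at -0.0365, -0.139 and -0.196, but the replicate effect removed before deposit pushes them below 0, so the values cannot show whether the numbers pair the samples, and no label says so. The replicate block left 356 calls (30 higher, 326 lower), and together with leaving out array 3 of 240 min 1096 (260 higher, 836 lower). Normalizing by quantiles again (475), centring on medians (667), leaving out dim genes (678 of 6873 tested), averaging probe sets (591) and a trended, robust prior (596) kept the total within 1.5 times. The replicate block left 90 named genes on their side of the limit and ended the call of 43, and leaving out array 1 or 2 of 240 min ended those of 68 and 71. Among the named genes Odc1 alone turned direction, close to 0: its 0.01 was -0.0492 without array 3 of 240 min, with or without array 3 of 120 min, -0.0573 with the block as well, -0.00263 with averaged probe sets and -0.0201 with array weights, and ranged from -0.0492 to 0.0502 when 1 array was left out. The cause of these shifts was not tested.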
